A study of Homo sapiens with 9 samples.

Results

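The EGF receptor family and its ligands were followed as 10 genes, chosen by name among the 27111 genes of the expression tables: the receptors EGFR, ERBB2, ERBB3 and ERBB4 and the ligands EGF, AREG, EREG, HBEGF, TGFA and NRG1. Their RNA was measured by RNA-seq in multicellular tumor spheroids (MTSs) of PC-3, a human cell line derived from a bone metastasis of a prostate cancer. All 3 groups were lentivirally transduced and puromycin-selected cell populations that differed in the pSIN vector they carried: no insert (Empty), NF-YAl, the long isoform of NF-YA with exon 3, or NF-YAs, the short isoform that skips it. NF-YA is the DNA-binding subunit of NF-Y, a transcription factor that recognises the CCAAT box. Each group had 3 libraries, from independent experiments, each of several pooled MTSs, and an NF-YA transgene driven by a viral vector in 1 cancer line is not the endogenous gene at its own level. The transgenes are murine, so NFYA counts on human transcripts mix both. All 10 genes were listed in every library, and 9 passed the filter on low counts, the exception being NRG1.

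The 4 receptors are tyrosine kinases of the cell surface that work in pairs. EGF, TGFA and AREG bind EGFR, HBEGF and EREG bind EGFR and ERBB4, and NRG1 binds ERBB3 and ERBB4. ERBB2 has no known ligand of its own and acts as the partner of the others, and ERBB3 has little kinase activity and signals through its partners. The ligands are made as membrane-bound precursors and are released by shedding proteases of the ADAM family, and the activated receptors signal through RAS-ERK and PI3K-AKT. In prostate cancer cells that grow without androgen, such autocrine loops are a known source of growth signals.

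Since NF-Y reads CCAAT, the promoters of the members whose levels are described at most length are shown, with EREG because it lies next to AREG. The sequences are the 250 bases before the start of transcription in RefSeq on GRCh38.p14, written 5′ to 3′ on the strand of the gene, with CCAAT or its complement ATTGG and TATAAA in capitals. Of the 10 members, 8 were examined in this way, and ERBB3 and NRG1 were not.
AREG, chr4:74444886-74445135, plus strand: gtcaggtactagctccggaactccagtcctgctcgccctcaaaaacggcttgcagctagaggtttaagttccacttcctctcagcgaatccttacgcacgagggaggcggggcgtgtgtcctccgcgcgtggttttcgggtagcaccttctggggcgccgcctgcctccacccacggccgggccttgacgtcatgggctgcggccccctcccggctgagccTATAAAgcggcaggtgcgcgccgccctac
EREG, chr4:74364895-74365144, plus strand: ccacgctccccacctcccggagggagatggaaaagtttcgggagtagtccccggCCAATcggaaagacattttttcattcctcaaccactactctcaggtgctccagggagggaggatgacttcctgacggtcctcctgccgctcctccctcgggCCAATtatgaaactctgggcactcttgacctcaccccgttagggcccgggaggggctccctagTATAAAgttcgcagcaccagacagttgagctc
TGFA, chr2:70553827-70554076, minus strand: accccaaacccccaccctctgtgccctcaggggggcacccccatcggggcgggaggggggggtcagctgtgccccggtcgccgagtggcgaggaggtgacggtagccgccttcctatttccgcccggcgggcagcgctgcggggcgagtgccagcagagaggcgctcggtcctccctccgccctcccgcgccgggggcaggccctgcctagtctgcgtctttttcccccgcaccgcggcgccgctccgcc
EGFR, chr7:55018767-55019016, plus strand: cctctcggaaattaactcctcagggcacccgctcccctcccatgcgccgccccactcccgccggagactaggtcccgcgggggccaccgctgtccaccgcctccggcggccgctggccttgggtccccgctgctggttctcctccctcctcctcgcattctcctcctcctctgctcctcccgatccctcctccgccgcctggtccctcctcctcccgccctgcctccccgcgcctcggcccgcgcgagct
ERBB4, chr2:212538803-212539052, minus strand: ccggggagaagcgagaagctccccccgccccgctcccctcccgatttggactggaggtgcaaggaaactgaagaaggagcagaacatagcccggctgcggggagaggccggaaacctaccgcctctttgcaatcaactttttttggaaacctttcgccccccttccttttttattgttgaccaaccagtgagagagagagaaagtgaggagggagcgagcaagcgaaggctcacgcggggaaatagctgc
CCAAT or ATTGG on either strand occurred in 32.0% of the 35116 promoters of the same length, and TATAAA on the strand of the gene in 6.80%. The EREG window held 2 CCAAT, whose first bases lay 196 and 95 bases before the start, and a TATAAA 32 bases before it. The AREG window held a TATAAA 29 bases before the start and no CCAAT in either orientation. The windows of TGFA, ERBB4 and HBEGF and the EGFR window shown contained none of these letters, and that of a second EGFR start had TATAAA 146 and 36 bases before it. Of the other members, ERBB2 had an ATTGG 243 bases and EGF a CCAAT 249 bases before the start. These matches describe letters in the windows and were not tested as binding sites.

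On GRCh37, the build the reads were aligned to, AREG (chromosome 4, 75310853 to 75320722) and EREG (chromosome 4, 75230862 to 75254466) are neighbours on the plus strand. EGFR spans 55086710 to 55279321 of chromosome 7 on the plus strand, and TGFA 70674416 to 70781325 of chromosome 2 on the minus strand. ERBB4 spans 212240442 to 213403565 of chromosome 2 on the minus strand, and ERBB3 56470583 to 56497289 of chromosome 12 on the plus strand. ERBB2 (chromosome 17, 37844167 to 37886679, plus strand) is overlapped by PGAP3 and MIEN1 on the minus strand, and EGFR by EGFR-AS1, whose counts summed to 311.6 over the 9 libraries against 13609 for EGFR. The genes that overlap ERBB2, with MIR4728 on the plus strand, summed to 5426 counts against 17279 for ERBB2. Whether the counting used strand is not given in the sources used here, so reads of such pairs cannot be told apart with certainty.

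Each library held between 18076979 and 27163976 expected counts, and 20116 to 20756 genes were above 0. NFYA, the gene of the transgenes, was at 89.3 to 96.7 CPM (counts scaled to 1000000 per library, with TMM factors) in Empty, 287 to 383 with NF-YAl and 254 to 264.5 in NF-YAs, and every NF-YA library exceeded every Empty library. The 4 epithelial markers summed to 1164 to 1287 CPM in the Empty group, 736 to 750.0 with NF-YAl and 725.5 to 830.2 with NF-YAs, since KRT8, KRT18 and KRT19 fell in both NF-YA groups, whereas EPCAM rose. KLK3, a luminal prostate marker, was at 0 throughout. The 3 endothelial markers summed to 12.6 to 14.2, 6.13 to 7.08 and 7.80 to 8.66 CPM, and the 4 leukocyte markers reached at most 1.185 CPM. The part of these shifts in the results below was not tested. NF-YAl replicate D stood apart from NF-YAl A and B: AREG, EREG, DUSP5 and ERRFI1, the last chosen after its values were seen, were highest there among the NF-YAl libraries. Short RNA genes took 20.9% of its TPM against 44.8 to 58.9% in the other 8 libraries, which raises the TPM of every longer gene in it, so levels are given as CPM and results that rest on this library are also given without it. Empty A also stood apart from Empty B and C. Its chi-square per gene was 50.97 and 51.22 against them, where B and C differed by 11.67. Ribosomal RNA took 7.71% of its counts against 3.77% in B and 3.37% in C.

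In Empty MTSs, AREG was by far the most abundant of the 10 genes per length. On the scale of CPM per kb of effective length, AREG was at 65.7 ± 11.2 (mean ± SD, n = 3, as in all such values), ERBB2 at 19.3 ± 2.21, EGFR at 12.7 ± 0.467, HBEGF at 10.7 ± 0.611 and TGFA at 3.99 ± 0.677. ERBB3 followed at 1.55 ± 0.131, EGF at 0.685 ± 0.0127, EREG at 0.386 ± 0.0364 and ERBB4 at 0.0265 ± 0.00594, and no 2 neighbours in this order had overlapping libraries. In NF-YAl MTSs the order per length began with AREG at 31.5 ± 12.7 and ERBB2 at 19.4 ± 5.59, which overlapped, and HBEGF at 11.3 ± 1.99 stood above EGFR at 7.53 ± 0.945. ERBB3 at 2.95 ± 0.293 and TGFA at 2.39 ± 0.418 overlapped, as did EGF and EREG. In NF-YAs MTSs the order of the first 4 was that of Empty, with AREG at 29.95 ± 8.56 and EGFR at 14.8 ± 0.763, while TGFA overlapped with ERBB3 and ERBB4 with NRG1.

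Against Empty, NF-YAl MTSs had less EGFR, AREG and TGFA and more ERBB3 and ERBB4 RNA. With an adjusted p under 0.01 taken as changed, 2 of the 9 tested members were higher and 3 lower, where 10% of the 17108 tested genes were higher and 9.54% lower. With a |Log2FC| above 1 as well, the threshold for a DEG, ERBB3 and ERBB4 were higher and AREG was lower, against 4.76% and 3.5% of all genes. ERBB4 was among the tested genes only because of its counts in the NF-YA libraries. The median Log2FC of the members was 0.07 and that of all genes 0.01. In MTSs, fewer cells that express a gene and less of its RNA per cell cannot be told apart.

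Between NF-YAs and Empty MTSs, 1 member was higher (ERBB4, also a DEG) and 2 were lower (AREG, also a DEG, and TGFA). Here too, ERBB4 had passed the filter only through the NF-YA libraries. Over all genes, 12.1% were higher and 10.5% lower, and 5.44% and 3.90% were DEGs. Both comparisons use the same Empty libraries. Between the NF-YA groups themselves, NF-YAl had more ERBB3, where 4.70% of genes were higher, and less EGFR, where 6.25% were lower. EGFR was also a DEG in this direction, as were 2.86% of genes, and no member was a DEG in the other, as were 1.74%.

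**Figure D1:**
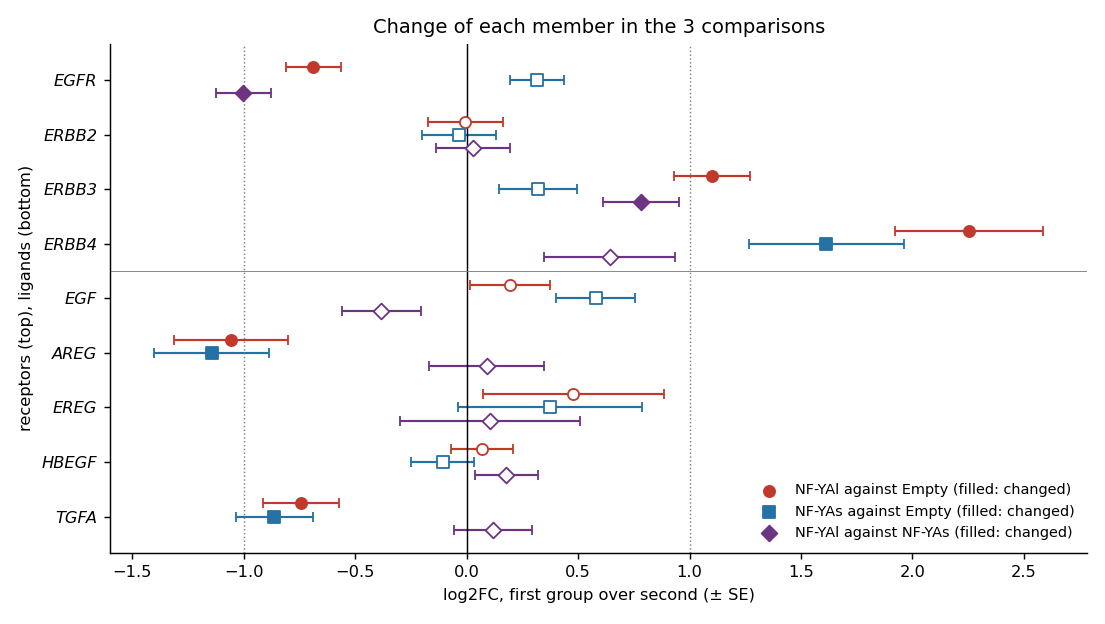
Log2FC of the 9 tested members, receptors above the line and ligands below it, in the 3 comparisons, with bars for the SE of the quasi-likelihood test. Filled symbols passed an adjusted p of 0.01 and the dotted lines stand at a Log2FC of 1 and -1. EGFR lies at -0.69 in NF-YAl and 0.31 in NF-YAs against Empty, whereas AREG and TGFA lie on the left in both.

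EGFR, the receptor of most of these ligands, was at 73.2, 72.7 and 67.0 CPM in Empty A, B and C. It was at 35.5, 46.1 and 50.3 CPM in NF-YAl A, B and D and at 92.9, 89.9 and 81.8 CPM in NF-YAs A, B and C. The 3 groups did not overlap, with NF-YAl lowest and NF-YAs highest. EGFR fell by 0.69 (log2) with NF-YAl against Empty (SE 0.122, adjusted p = 0.00111), a 1.61-fold lower level. The 0.31 by which NF-YAs exceeded Empty (SE 0.121) did not pass (adjusted p = 0.0618), although it did in a fit of NF-YAs and Empty alone (0.31, adjusted p = 0.00353). The direct difference of NF-YAl from NF-YAs was -1.002 (SE 0.123, adjusted p = 0.000197), a 2.0-fold lower level that stands just over the limit for a DEG. Leaving out each library in turn kept both calls, with adjusted p-values of at most 0.0064 and 0.0016. Without NF-YAl D the Log2FC were -0.79 against Empty and -1.11 against NF-YAs. On TPM without a correction for short RNA genes, the values -0.44 and -0.82 did not pass (limma, adjusted p = 0.37 and 0.108).

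ERBB2, the receptor without a ligand, was at 77.0, 96.4 and 86.5 CPM in Empty, at 112.7, 81.9 and 64.5 with NF-YAl A, B and D and at 79.3, 85.8 and 88.8 with NF-YAs. All groups overlapped, and the NF-YAl libraries spread furthest. Its Log2FC was -0.01 in NF-YAl (adjusted p = 0.984; 95% interval -0.37 to 0.36) and -0.03 in NF-YAs (adjusted p = 0.895; -0.40 to 0.33). The level of ERBB2 per length was 1.53 ± 0.214 times that of EGFR in Empty, 2.66 ± 1.08 times with NF-YAl and 1.29 ± 0.132 times with NF-YAs. The ratio was 3.83 with NF-YAl A, 2.47 in B and 1.69 in D, and Empty B at 1.72 lay above the last of these.

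ERBB3, the receptor that recruits PI3K most directly, was at 4.58, 3.94 and 5.30 CPM in Empty, at 11.6, 9.63 and 8.44 with NF-YAl and at 5.78, 5.88 and 5.62 with NF-YAs. The NF-YAl libraries were all above the others, and the NF-YAs libraries were close to Empty C. ERBB3 rose by 1.10 (log2) with NF-YAl (SE 0.171, adjusted p = 0.00044), a 2.15-fold higher level, and this held without any single library. The 0.32 of NF-YAs (SE 0.175) did not pass (adjusted p = 0.176). The direct difference between the NF-YA groups was 0.78 (SE 0.170, adjusted p = 0.00669). It did not pass without Empty A (0.79), NF-YAl A (0.66) or B (0.80), or NF-YAs A (0.78), B (0.79) or C (0.77), at adjusted p-values of up to 0.0337, nor with an offset for effective length (0.68, adjusted p = 0.017) or in a fit of both NF-YA groups alone (0.78, 0.0148).

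ERBB4, a receptor for neuregulins, HBEGF and EREG, was barely expressed in Empty, with 9, 6 and 8 counts, and had 30, 28 and 43 counts with NF-YAl and 18, 16 and 24 with NF-YAs. This was 0.310 ± 0.0696 CPM in Empty, 1.501 ± 0.320 with NF-YAl and 0.957 ± 0.155 with NF-YAs. Every NF-YA library was above every Empty library, at counts where single reads weigh. ERBB4 passed the filter on low counts only through the NF-YA libraries. It was not in the fit that required at least 10 counts in every library. Its calls against Empty thus rest on a gene kept because it was high in the NF-YA groups. ERBB4 rose by 2.26 (log2) with NF-YAl (SE 0.331, adjusted p = 0.000308), 4.77-fold, and by 1.61 in NF-YAs (SE 0.349, adjusted p = 0.00344), 3.06-fold. The NF-YAl call held without any single library. On log2 TPM, where a pseudocount of 0.5 exceeds its level, the values were 0.37 and 0.18 and neither passed (limma, adjusted p = 0.126 and 0.555). The NF-YAs call also did not pass without Empty B (1.46) or C (1.63), or without NF-YAs A (1.61) or C (1.49), at adjusted p-values of 0.0122 to 0.0191. The NF-YA groups differed by 0.64, with a 95% interval of 0.00299 to 1.28, which did not pass (adjusted p = 0.135).

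AREG, an EGFR ligand of low affinity, was at 62.5, 87.1 and 71.4 CPM in Empty. It was at 25.5, 28.5 and 52.1 CPM in NF-YAl A, B and D and at 43.7, 25.3 and 31.1 CPM in NF-YAs A, B and C. All 6 NF-YA libraries were below the lowest Empty library, and NF-YAl D and NF-YAs A were the nearest to it. AREG fell by 1.06 (log2) with NF-YAl (SE 0.256, adjusted p = 0.00768) and by 1.145 in NF-YAs (SE 0.257, adjusted p = 0.00436), which is 2.08-fold and 2.21-fold lower. The NF-YA groups differed by 0.09, with an interval of -0.47 to 0.65 (adjusted p = 0.829).

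The calls of AREG depended on the libraries in the fit, although its direction did not. Without NF-YAl D the decrease in NF-YAl was larger, at -1.44 (adjusted p = 0.00013). It did not pass without Empty A (-1.15), B (-0.92) or C (-1.08), without NF-YAl A (-0.87) or B (-0.92), or without NF-YAs C (-1.06), at adjusted p-values of up to 0.0387. It did not pass with library totals as the only scaling (-0.89, adjusted p = 0.0232) or in a fit of NF-YAl and Empty alone (-1.05, adjusted p = 0.0122) either. That in NF-YAs did not pass without Empty B (-1.01) or C (-1.17), or without NF-YAs B (-0.98) or C (-1.10), at up to 0.0248, or with library totals (-1.03, adjusted p = 0.0111). In TPM, AREG was at 74.7, 79.9 and 63.9 in Empty, 28.3, 27.0 and 91.3 in NF-YAl A, B and D and 54.2, 27.95 and 32.3 with NF-YAs. NF-YAl D was thus the highest of all libraries in TPM and below Empty in CPM, beside its smaller share of short RNA genes.

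TGFA, the ligand first known from transformed cells, was at 19.96, 16.3 and 14.3 CPM in Empty, 8.91, 9.12 and 12.0 with NF-YAl A, B and D and 10.7, 8.36 and 8.76 with NF-YAs. As with AREG, no NF-YA library reached the lowest Empty library. TGFA fell by 0.75 (log2) with NF-YAl (SE 0.170, adjusted p = 0.00553) and by 0.86 in NF-YAs (SE 0.172, adjusted p = 0.00212), which is 1.68-fold and 1.82-fold lower. The first did not pass without Empty A (-0.59) or B (-0.77) or NF-YAl A (-0.67) or B (-0.68), at up to 0.0305, and the second without Empty A (-0.72) or NF-YAs B (-0.79) or C (-0.83), at up to 0.014. With library totals the NF-YAl value was -0.59 (adjusted p = 0.0247), in a fit of NF-YAl and Empty alone -0.74 (0.0155), and without NF-YAl D -0.90 (0.00114). The NF-YA groups differed by 0.12, with an interval of -0.26 to 0.50.

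EREG, which lies beside AREG, had 37.5, 47.7 and 43.5 counts in Empty and 50.8, 38.1 and 47.2 in NF-YAs. In NF-YAl it had 24.1 and 35.9 counts in A and B and 109.2 in D. In CPM, NF-YAl A and B, at 1.28 and 1.47, were below all Empty libraries, while D, at 4.485, was above every other library. Its Log2FC of 0.48 in NF-YAl (SE 0.407) did not pass (adjusted p = 0.407) and was -0.34 without NF-YAl D. That of 0.37 with NF-YAs did not pass either (adjusted p = 0.518).

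HBEGF, a heparin-binding ligand of EGFR and ERBB4, was at 22.1 to 24.5 CPM in Empty, 20.3 to 29.1 with NF-YAl and 19.3 to 24.6 with NF-YAs. These ranges overlapped throughout. Its Log2FC was 0.07 with NF-YAl (95% interval -0.24 to 0.38) and -0.11 with NF-YAs (-0.42 to 0.20), and neither passed (adjusted p = 0.754 and 0.588).

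EGF, the founding ligand, was low, at 3.65, 3.78 and 3.86 CPM in Empty, 3.66, 4.54 and 4.67 with NF-YAl and 4.74, 5.87 and 6.22 with NF-YAs. The NF-YAs libraries were above all the others. The Log2FC of 0.58 in NF-YAs (SE 0.178) did not pass at 0.01 (adjusted p = 0.0243), although it did with library totals as the only scaling (0.69, adjusted p = 0.00976), nor did that of 0.20 in NF-YAl (adjusted p = 0.447).

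NRG1, the neuregulin that binds ERBB3 and ERBB4, had 0 counts in all 3 Empty libraries, which allows a level of up to 0.118 to 0.126 CPM (3 counts a library, for counting error only). It had 2, 2 and 0 counts in NF-YAl A, B and D and 0, 4 and 4 with NF-YAs. These counts are near the floor, so no fold is given and NRG1 was not tested.

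Per length, the sum of the ligands was smaller in each NF-YA library than in each Empty library, while the sums of the receptors overlapped. The 6 ligands summed to 72.6, 92.8 and 78.9 CPM per kb in Empty, 39.1, 38.1 and 62.1 with NF-YAl A, B and D and 53.4, 35.1 and 42.7 with NF-YAs. AREG made up 80.3 ± 3.52% of this sum in Empty, 66.5 ± 7.96% with NF-YAl and 67.8 ± 5.14% with NF-YAs, and HBEGF 13.4 ± 2.31%, 25.4 ± 7.84% and 23.3 ± 4.04%. The 4 receptors summed to 33.6 ± 1.95 CPM per kb in Empty, 29.99 ± 4.93 with NF-YAl and 35.8 ± 1.21 with NF-YAs. EGFR took 37.9 ± 3.29% of the receptor sum in Empty, 25.9 ± 7.22% with NF-YAl and 41.5 ± 2.51% with NF-YAs. ERBB3 took 4.61 ± 0.370%, 9.92 ± 0.824% and 5.22 ± 0.906%. These sums describe RNA, and no test was made on them.

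**Figure D2:**
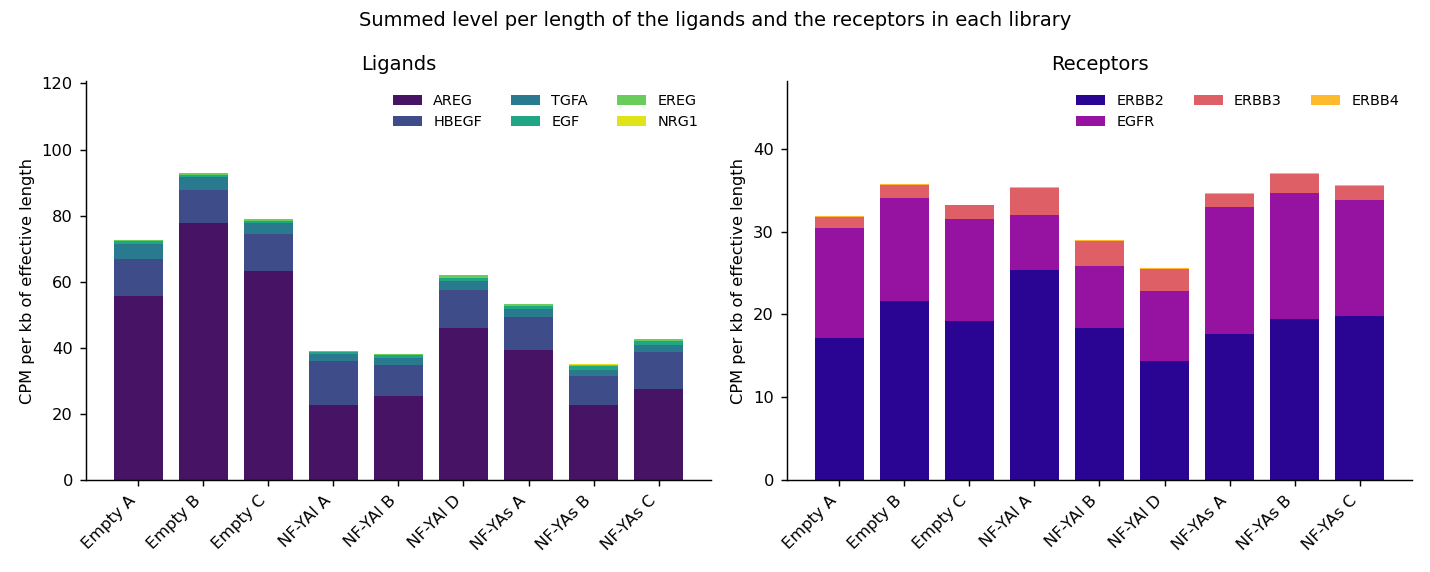
Stacked bars, from 0, of the level per length (CPM per kb of effective length) of the 6 ligands and the 4 receptors in each of the 9 libraries. AREG fills most of each ligand bar, from 22.7 in NF-YAs B to 77.9 in Empty B, and ERBB2 and EGFR fill most of each receptor bar.

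At the level of transcripts, the members with several transcripts and a mean of at least 1 TPM were EGFR, ERBB2, ERBB3, EGF and TGFA. The deposited share of each transcript in its gene's TPM did not overlap between NF-YAl and Empty for 1 of 23 transcripts, between NF-YAs and Empty for 4 of 23 and between the NF-YA groups for 0 of 22, where 12.9%, 15.5% and 12.1% of all transcripts of such genes did not. An exact permutation test of 3 against 3 libraries cannot go below p = 0.1. A short EGFR transcript of 1572 nt, one of those that code for a receptor ectodomain without the kinase, took 7.32, 5.74 and 6.25% in Empty A, B and C and 0, 0 and 2.02% in NF-YAs (two-sided exact permutation p = 0.1). In NF-YAl it took 8.06, 0 and 2.89%, so the groups overlapped. An EGFR transcript of 5552 nt (4.05 ± 1.23% in Empty, 0.853 ± 1.48% in NF-YAs), an EGF transcript of 5577 nt (36.5 ± 30.1%, 0.817 ± 0.944%) and an ERBB2 transcript of 4872 nt (2.93 ± 2.23%, 0.327 ± 0.566%) did not overlap between the same groups. The transcript apart between NF-YAl and Empty was one of 2561 nt from ERBB2, at 2.01 ± 0.581% against 1.02 ± 0.289%. The full-length EGFR transcript of 6353 nt took 69.9 ± 16.6% in Empty, 78.5 ± 26.2% with NF-YAl and 82.7 ± 7.75% with NF-YAs. A short ERBB3 transcript of 1050 nt, which codes for a secreted form, took 40.3 to 65.1% of the ERBB3 TPM, and its share overlapped between all groups.

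Beyond the members, 66 genes of the pathway in 7 lists were examined, of which 64 were tested. NF-YAl against Empty changed 9 of them upward and 11 downward, and NF-YAs 11 upward and 10 downward. This was 31.2% and 32.8% of the 64, where 19.6% and 22.6% of all genes changed in either direction, and the medians were 0.04 and 0.06. Between the NF-YA groups 2 were higher and 5 lower in NF-YAl, 10.9% against 11% of all genes, and 14 in all changed without NF-YAl D, where 15.8% of all genes did. These genes were listed with earlier results of these data known, and their share is a description. Without Empty A, B or C, the 20 changed in NF-YAl became 12, 9 and 9, while the share of all genes changed went from 19.6% to 14.1%, 12.5% and 11.6%.

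Among 5 other ligands, 4 were tested and NRG2, a second neuregulin, was the only one called in any comparison. It was lower by 0.77 (log2) in NF-YAl (SE 0.108, adjusted p = 0.000235) and at -0.08 in NF-YAs (adjusted p = 0.586). Of 4 genes of ligand shedding, the inactive rhomboid RHBDF1, which helps the protease ADAM17 to mature, fell by 0.93 in NF-YAl and by 0.68 in NF-YAs (adjusted p = 3.61e-05 and 0.000277). Its paralog RHBDF2 rose by 0.53 in NF-YAs (adjusted p = 0.00227) and was at 0.25 in NF-YAl, and its call did not pass without Empty B (0.52) or C (0.50) or NF-YAs B (0.51) or C (0.53), at up to 0.0154. The proteases ADAM10 and ADAM17 themselves were not called in any comparison, with Log2FC between -0.15 and 0.16.

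Of the 12 genes listed for restraint or degradation of the receptors, 11 were tested. In NF-YAl 2 rose and 1 fell, and in NF-YAs 3 rose and 2 fell. Over all genes, 10% rose and 9.54% fell in NF-YAl, and 12.1% rose and 10.5% fell in NF-YAs. LRIG2 and LRIG3 were listed as relatives of LRIG1, and their action on the receptors was not tested. LRIG1, a membrane protein that promotes the degradation of ERBB receptors, was at 1.48 ± 0.458 CPM in Empty, 17.2 ± 7.26 with NF-YAl and 17.8 ± 3.70 with NF-YAs. It rose by 3.53 and 3.58 on the log2 scale (SE 0.354 and 0.355, adjusted p = 2.14e-05 and 1.6e-05). Its relative LRIG3 rose by 1.33 and 0.98 (adjusted p = 0.000331 and 0.00237), the second of which did not pass without Empty B (0.81) or NF-YAs A (0.93) or B (0.95), at up to 0.0117. LRIG2 rose by 0.52 in NF-YAs (adjusted p = 0.00132) and was at 0.37 in NF-YAl (adjusted p = 0.012), and its call did not pass without Empty C (0.48, adjusted p = 0.0115). CBLB, a ubiquitin ligase for EGFR, fell by 0.86 in NF-YAs and was at -0.41 in NF-YAl.

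Among 10 adaptors, 1 rose and 3 fell in NF-YAl, where 10% and 9.54% of all genes did. In NF-YAs 3 fell, where 10.5% of all genes did. SHC1, which links the receptors to GRB2 and SOS, fell by 0.94 and 1.02 (adjusted p = 1.42e-05 and 6.61e-06). GRB7, an adaptor of ERBB2 and its neighbour on chromosome 17, averaged 15.2 CPM in the Empty group, 8.13 with NF-YAl and 2.67 with NF-YAs, and the NF-YA groups differed by 1.59 (SE 0.231, adjusted p = 0.000612). Its decrease of 0.91 in NF-YAl did not pass without Empty B (-0.86) or C (-0.81) or NF-YAl B (-0.80) or D (-0.78), at adjusted p-values of up to 0.0299. GAB1, a docking protein, fell by 0.50 in NF-YAs and was at 0.26 in NF-YAl, and SOS2, an exchange factor for RAS, rose by 0.48 in NF-YAl. The GAB1 call did not pass without Empty A (-0.46) or B (-0.48) or NF-YAs B (-0.47) or C (-0.44), at up to 0.0261, nor that of SOS2 without Empty A (0.49), B (0.45) or C (0.50), at up to 0.0209.

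Of the 10 genes of the RAS-ERK core, 1 rose in NF-YAl and 2 rose in NF-YAs, where 10% and 12.1% of all genes rose. NRAS had a mean of 1.86 CPM in the Empty group, 21.0 with NF-YAl and 23.4 with NF-YAs, and rose by 3.51 and 3.66 (SE 0.288 and 0.289, adjusted p = 5.55e-06 and 3.44e-06). HRAS rose by 0.69 in NF-YAs (adjusted p = 0.000269) and was at 0.04 in NF-YAl. MAP2K2, the kinase MEK2, was at -0.34 and 0.22, which did not pass, and was lower by 0.55 in NF-YAl than in NF-YAs (adjusted p = 0.00472). That difference did not pass without Empty C (-0.55), NF-YAl B (-0.60) or NF-YAs B (-0.53) or C (-0.52), at up to 0.0283. Of the 12 genes of the PI3K-AKT core, 3 rose and 2 fell in NF-YAl, where 10% and 9.54% of all genes did. In NF-YAs 2 rose and 1 fell, against 12.1% and 10.5% of all genes. RICTOR, which defines mTORC2, fell by 0.82 and 1.13 (adjusted p = 9.18e-05 and 8.98e-06). RPTOR, which defines mTORC1, rose by 0.73 in NF-YAs and was at 0.02 in NF-YAl, and MTOR fell by 0.43 in NF-YAl (adjusted p = 0.00545) and was at 0.06 in NF-YAs. The MTOR call did not pass without Empty B (-0.40) or C (-0.42), NF-YAl A (-0.37) or any 1 NF-YAs library (-0.43 in each), at up to 0.0275.

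Among 13 genes of ERK output and feedback, 2 rose and 3 fell in NF-YAl, where 10% and 9.54% of all genes did. In NF-YAs 3 rose and 3 fell, against 12.1% and 10.5% of all genes. The ERK phosphatases DUSP5 and DUSP6 moved in opposite directions. DUSP5 fell by 1.149 and 1.26 (adjusted p = 0.0042 and 0.00218), and DUSP6 rose by 0.56 and 0.72 (adjusted p = 0.000603 and 8.97e-05). The DUSP5 calls did not pass without Empty A (-1.10), B (-1.19) or C (-1.147) or NF-YAl B (-1.02) for NF-YAl, and without NF-YAs B (-1.13) or C (-1.154) for NF-YAs, at up to 0.0228 and 0.0142, and without NF-YAl D the NF-YAl value was -1.55. SPRY2, a feedback inhibitor, fell by 0.84 and 0.77 (adjusted p = 0.000362 and 0.000578), and the ETS factor ETV4 rose by 0.46 in NF-YAs, which did not pass without Empty C (0.45) or NF-YAs B (0.43), at up to 0.0142.

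The genes whose profiles over the 9 libraries were nearest to that of EGFR, by the root-mean-square distance of mean-centred log2 CPM, were ASB9 (0.0644), HJURP (0.0909) and FUT8 (0.1). Their Log2FC were -0.65, -0.56 and -0.70 with NF-YAl against Empty, and 0.29, 0.45 and 0.13 with NF-YAs. For AREG the nearest were PAQR5 (0.172), DUSP5 (0.174) and AP3S1 (0.18). DUSP5 was at 368, 329 and 351 CPM in Empty, 110.0, 127.9 and 234 with NF-YAl A, B and D and 193, 121 and 124.5 with NF-YAs, with NF-YAl D and NF-YAs A nearest to Empty, as for AREG. Since all these genes were picked by their distance over the same 9 libraries, the likeness of their values follows from the choice.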

How the data were processed

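RNA-seq had been made from PC-3 MTSs with a stranded total RNA kit. The authors aligned reads to the hg19 transcriptome with Bowtie2 through RSEM, which gave, per library, the deposited expected counts and TPM of 27111 genes and, for transcripts, the deposited percent of the gene's TPM. Whether counting used strand is not given in the sources used here. From these files, expected counts were rounded, genes were filtered with filterByExpr (17108 kept), scaled by TMM and tested with edgeR's quasi-likelihood F test in 1 fit of all 9 libraries (edgeR 4.0.16, R 4.3.3), with Benjamini-Hochberg adjustment over all tested genes. An adjusted p under 0.01 was called changed, and a DEG also had a |Log2FC| above 1, on the log2 scale of fitted counts. SEs are |Log2FC| over the square root of F, and 95% intervals use the t distribution. Libraries held 18076979 to 27163976 counts, which limits precision mainly for ERBB4, EREG and NRG1.

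Alternatives were DESeq2 1.42.0, RLE scaling, library totals, other filters, fits of only 2 groups, a block for the replicate letter, an effective length offset, limma 3.58.1 on log2(TPM + 0.5), a threshold of 0.05, and fits without each library in turn. The same limma fit after rescaling TPM without genes under 200 bases was chosen after seeing the data. On simulated data for NF-YAl against Empty (17108 genes), edgeR, DESeq2 and limma each recovered 200 of 200 changed genes. Recovery at the fold changes, levels and spread between libraries of the members was not tested. Transcript shares were compared with two-sided exact permutation tests. Sequences came from RefSeq. The members and lists were chosen with earlier results of these data known. All members are named, and from each pathway list up to 4 called genes with the smallest adjusted p, except that some genes are not reported here. Replicates came from independent experiments per the study's methods, and no sample was left out.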

Additional observations from a re-analysis of the deposited data

Results flagged for a closer look

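The change from Empty differed between NF-YAl and NF-YAs MTSs, by the direct edgeR test of the NF-YA groups, for 2 members and 7 pathway genes, in a comparison that called 4.70% of all genes higher and 6.25% lower in NF-YAl. Among the receptors, the Log2FC of NF-YAl minus NF-YAs was -1.002 for EGFR, with every NF-YAl library below and every NF-YAs library above the Empty libraries. It was 0.7815 for ERBB3, a call that 6 of the 9 fits without 1 library lost. For the adaptors it was 1.592 for GRB7, which was lower than Empty in both groups, and 0.7602 for GAB1. It was negative for HRAS (-0.6477), MAP2K2 (-0.5543), MTOR (-0.4962), RPTOR (-0.7095) and the ligand NRG2 (-0.6847). Without 1 library, MAP2K2 lost its call in 4 and MTOR in 3 of the 9 fits, and EGFR, GRB7, GAB1, HRAS, RPTOR and NRG2 in 0.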

How the results depend on the processing

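Of the alternatives for single members' Log2FC, 455 kept the direction and the side of the threshold, 49 lost a call, 3 gained one and 30 changed direction; for the pathway genes named these were 1141, 83, 21 and 15. The causes were not tested.

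For NF-YAl against Empty, 5 members changed and 3 were DEGs. With library totals 3 changed, in the fit of 2 groups 3, with limma on TPM 1 (1 a DEG) and with TPM rescaled without short genes 2 (0 DEGs). Leaving out 1 library gave 3 to 5 changed members and 1 to 3 DEGs. The 20 changed pathway genes became 10 in the fit of 2 groups, 3 with limma and 31 at an adjusted p under 0.05, and 9 to 25 without 1 library. The share of all genes changed also moved, from 19.6% to 12.9% in the fit of 2 groups and 6.69% with limma. With library totals it was 21.4% and with rescaled TPM 20.6%, so there the members lost calls while the share of all genes did not fall. Without 1 library it was 11.6 to 24.5%. For NF-YAs against Empty, 3 members changed and 2 were DEGs: limma gave 0 and 0, rescaled TPM 1 and 1, library totals and the minimum of 10 counts 1 DEG each, and leaving out 1 library 0 to 3 changed and 0 to 2 DEGs. ERBB4 was not in the fit with that minimum, as its Empty libraries were under 10 counts. Over all genes limma called 986 DEGs in place of 1598, and 3 pathway genes changed in place of 21. The share of all genes changed went from 22.6% to 6.8% with limma, was 23.1% with rescaled TPM, and was 13.6 to 28.8% without 1 library. For NF-YAl against NF-YAs, 2 members changed and 1 was a DEG: the fit of 2 groups, the effective length offset and rescaled TPM gave 1 changed and limma 0, and library totals, no filter, at least 10 counts, the offset, limma and rescaled TPM gave 0 DEGs. Leaving out 1 library gave 1 to 2 changed members, 0 to 1 DEGs and 525 to 977 DEGs over all genes against 788, where limma gave 453. The 7 changed pathway genes became 14 with DESeq2, 1 with limma, 20 at 0.05 and 5 to 14 without 1 library. Of all genes, 11% changed in the main fit, 16.8% with DESeq2, 3.07% with limma and 4.76 to 15.8% without 1 library. Transcript shares apart between groups numbered 5 over the 3 comparisons together, and 6 to 12 without 1 library, where groups of 2 separate more easily. The matching share of all transcripts is not given for those fits, so the rise is not read as a result about the members.

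Directions changed only for values that had not passed. ERBB2 in NF-YAl became 0.144 with library totals, 0.004986 without a filter, 0.0005832 with at least 10 counts, 0.004941 with the length offset, 0.2677 with limma and 0.136 with rescaled TPM, and -0.242 to 0.1671 without 1 library. ERBB2 in NF-YAs became 0.0747, 0.144 and 0.06954 with totals, limma and rescaled TPM, and -0.109 to 0.04931 without 1 library. In NF-YAs, HBEGF became 0.05703 with limma, and NRG2 0.02507, 0.08284 and 0.009876 with totals, limma and rescaled TPM. Without 1 library, NF-YAl values ran from -0.338 to 0.7684 for EREG, -0.05662 to 0.1966 for HBEGF, -0.005656 to 0.1129 for HRAS and -0.07723 to 0.0743 for RPTOR. Between the NF-YA groups, SPRY2 became 0.04255 with limma and EREG -0.005759 with rescaled TPM. Without 1 library they ran from -0.2967 to 0.3246 for AREG, -0.2949 to 0.3537 for DUSP5, -0.2087 to 0.2018 for ERBB2, -0.7106 to 0.3941 for EREG, -0.3081 to 0.2601 for LRIG1, -0.4246 to 0.07874 for NRAS, -0.231 to 0.05318 for SPRY2 and -0.0338 to 0.2248 for TGFA.

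Replicate letters were not taken to pair the libraries. Residuals of 5 of 7 same-lettered pairs correlated above 0.1, against 3 of 20 other pairs, but the remaining same-lettered pairs were at -0.001385 and -0.07315, the labels do not say what a letter marks, and NF-YAl D has no partner. Whether letters mark shared experiments is unknown. With the replicate block, which leaves D without weight, 13 pathway genes differed between the NF-YA groups and counts of changed members stayed at 5, 3 and 2. Of all genes, 16.4% differed between the NF-YA groups with the block, against 11% in the main fit. For the NF-YAl against Empty comparison, the block raised this all-gene share from 19.6% to 24.3%. For NF-YAs against Empty, it went up from 22.6% to 31.1%. The counts of changed members thus did not rise along with these shares. ERBB2 became 0.1809 and EREG -0.3559 in NF-YAl, and between the NF-YA groups AREG was -0.3293, DUSP5 -0.3158, EREG -0.7267, LRIG1 0.4258 and TGFA -0.1031.

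Some scalings moved all genes: in NF-YAl the median rose to 0.163 with library totals, 0.252 with limma and 0.151 with rescaled TPM, and in NF-YAs to 0.106 and 0.146 with the first 2. The split of higher to lower DEGs then was 1038 to 441, 746 to 228 and 823 to 400 in NF-YAl against 815 to 599, and 1096 to 513 and 698 to 288 in NF-YAs against 931 to 667. AREGB was not listed, so a sum with AREG was not run.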
